A study of Mus musculus with 1019 samples.

Results

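The cells described here are regulatory T cells (Tregs) of visceral adipose tissue (VAT) that carry transcripts of both Klrg1 and Il1rl1. Klrg1 encodes KLRG1, an inhibitory receptor found on differentiated T and NK cells, and Il1rl1 encodes ST2, the receptor for the cytokine IL-33. The cells were chosen by their own counts of these 2 genes: a cell was Klrg1+ Il1rl1+ when it held at least 1 unique molecular identifier (UMI, a tag that marks 1 captured mRNA molecule) of each gene. By that rule 390 of the 644 VAT cells were Klrg1+ Il1rl1+, and the table holds 1019 cells in all. They made up 59.4% of the cells in VAT library 2 (exact 95% interval 53.9 to 64.7%) and 61.8% in VAT library 3 (56.2 to 67.2%). In the 1 library of spleen Tregs 3 cells met the rule (0.80%, 0.165 to 2.32%).

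All cells came from male B6 mice aged 20 months, with no genetic change or treatment named in the labels. T cells of epididymal VAT and of spleen were sorted as DAPI- TCRb+ CD4+ CD25+, a gate that takes CD25-bearing CD4 T cells and names no Foxp3 marker. Single cells were then captured by inDrops, a droplet method that reads mRNA by its poly(A) tail and amplifies it linearly. The fat was broken down with the enzymes collagenase and dispase, and spleen by mechanical means alone, so tissue and digestion cannot be told apart. The labels name no animal for any library, so the libraries are the only replicates and every p-value measures only the spread between these libraries, which may be technical. For the spleen cells, 1 label names spleen alone and another names spleen together with visceral fat.

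Tregs restrain other immune cells and depend on the transcription factor Foxp3. In mice, Tregs build up in visceral fat with age, where they are known for PPAR-gamma, GATA3, ST2 and KLRG1, for making IL-10 and amphiregulin, and for restraining inflammation and supporting insulin sensitivity. IL-33 released by stromal cells binds ST2 paired with the co-receptor encoded by Il1rap, and signals through Myd88, Irak1 and Traf6 to NF-kB, a route that maintains these cells.

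Cells of both VAT libraries were of similar depth. The libraries held 556099 and 548770 UMIs, and the spleen library 573622. Klrg1+ Il1rl1+ cells had a median of 1642 and 1710 UMIs per cell in libraries 2 and 3, against 1460 and 1474 in the other VAT cells and 1423 in spleen. Their median number of genes was 797 and 782, against 714 and 689 in the other VAT cells. Because a deeper cell is more likely to show a UMI of both genes, the rule by itself selects for depth. The share of cells with both genes was 46.4, 62.4 and 69.4% in the shallowest, middle and deepest of 3 equal groups of cells of library 2, and 47.6, 62.5 and 75.2% in those of library 3. When each cell was thinned at random to 800 UMIs, those shares were 35.5, 41.3 and 34.2% in library 2 and 38.1, 45.2 and 36.2% in library 3, with no order by depth. The tests against other VAT cells therefore used cells paired within a library by their UMI total, and shares of cells were taken at 800 UMIs unless given as full depth. Summed levels of marker lists, and values said to be over all cells, use every cell at its own depth. The VAT libraries share 2 cell barcodes, which 2 Klrg1+ Il1rl1+ cells carry, and 1 Klrg1+ Il1rl1+ cell of library 3 shares its barcode with a spleen cell.

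The 2 genes of the rule differed in how many UMIs they gave, and these values are a description of what chose the cells. Klrg1 (chr6:122270596-122282882, minus strand, in GENCODE M21 on GRCm38) had a median of 6.5 and 5 UMIs per Klrg1+ Il1rl1+ cell in libraries 2 and 3, with a highest value of 34 and 29. Il1rl1 (chr1:40429570-40465415, plus strand) had a median of 2 in each library and a highest value of 13 and 12. The Il1rl1 count does not separate the membrane receptor from its soluble form, since the table holds 1 row per gene symbol. Membership therefore rested more often on a single molecule of Il1rl1: 59 and 56 cells had exactly 1 Il1rl1 UMI, whereas 23 and 31 had exactly 1 Klrg1 UMI. Only 5 and 14 cells sat at the threshold for both genes, with 1 UMI of each. Just outside the rule, 81 and 86 cells had Klrg1 without Il1rl1, at a median of 5 Klrg1 UMIs in each library, and 24 and 15 cells had Il1rl1 without Klrg1, at a median of 2 Il1rl1 UMIs. Only 29 and 19 VAT cells had neither. After thinning to 800 UMIs, 62.2 and 64.4% of Klrg1+ Il1rl1+ cells still showed both genes, so for the remaining cells the assignment depends on depth.

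**Figure D1:**
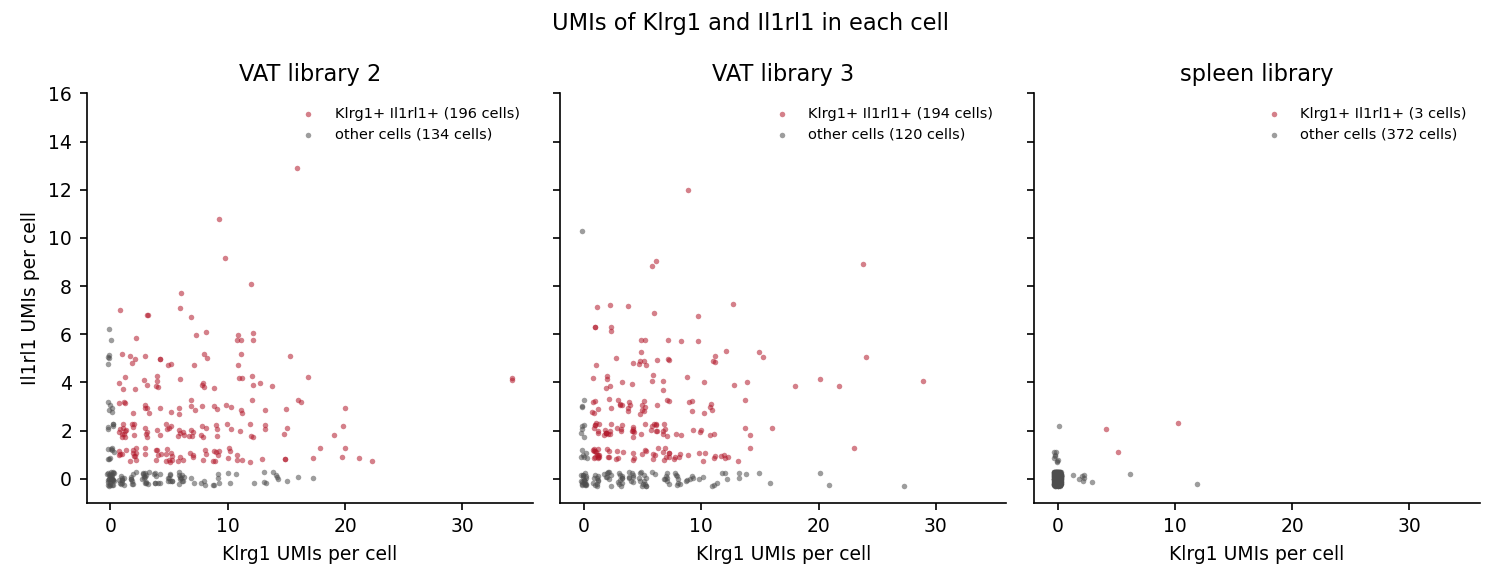
Klrg1 UMIs (x axis) against Il1rl1 UMIs (y axis) per cell in VAT library 2, VAT library 3 and spleen, with points jittered so that cells with equal counts can be seen. Red points are the cells with at least 1 UMI of each gene, 59.4 and 61.8% of VAT cells and 3 spleen cells, and grey points are all other cells. The red cells run without a gap into the cells with 1 gene or neither.

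The 2 transcripts occurred together in VAT slightly more often than their separate frequencies give. Both genes chose the cells, so this is a description, and with Klrg1 in most VAT cells the excess has a low ceiling. Klrg1 was seen in 83.9 and 89.2% of all VAT cells and Il1rl1 in 66.7 and 66.6%, against 3.20% of spleen cells for each gene. Cells with both were 1.06 and 1.04 times as many as the product of the 2 frequencies gives, and 1.05 and 1.06 times at 800 UMIs. Il1rl1 was then seen in 50.2% (43.7 to 56.7%) and 50.2% (43.8 to 56.6%) of Klrg1+ cells, against 41.4% (30.9 to 52.5%) and 36.9% (25.3 to 49.8%) of Klrg1- cells. The intervals overlap in both libraries. Deeper cells show both genes more often. At full depth Il1rl1 was seen in 70.8% (65.02 to 76.05%) and 69.3% (63.5 to 74.6%) of Klrg1+ cells. In Klrg1- cells it was 45.3% (31.6 to 59.55%) and 44.1% (27.2 to 62.1%), and these intervals separate. In spleen 3 cells had both genes where the product gives 0.384, a count too small to compare.

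The label was checked against Treg markers, and T cell receptor genes are given further below. After thinning, Foxp3 was seen in 23.98% (18.2 to 30.6%) and 19.1% (13.8 to 25.3%) of Klrg1+ Il1rl1+ cells, against 29.9% (22.3 to 38.4%) and 14.2% (8.47 to 21.7%) of the other VAT cells and 24.3% of spleen cells. The share in Klrg1+ Il1rl1+ cells lay below that in the other cells of library 2 and above it in library 3. At full depth 39.3 and 36.1% of Klrg1+ Il1rl1+ cells held a Foxp3 UMI, so for the remaining cells the label rests on the sort and on other genes. Il2ra, which encodes CD25, the IL-2 receptor chain used in the sort, was seen after thinning in 48.5 and 45.4% of Klrg1+ Il1rl1+ cells, against 39.6 and 31.7% of other VAT cells and 21.6% of spleen cells. Ikzf2, which encodes the Treg transcription factor Helios, was seen in 47.5 and 38.1%, against 44.03 and 37.5% of other VAT cells and 30.7% of spleen cells. Ctla4, an inhibitory receptor by which Tregs act, was seen in 32.1 and 33.5%, against 30.6 and 32.5% of other VAT cells and 8.53% of spleen cells.

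Markers of other cell types were then summed over all cells at full depth. The sort for TCRb and CD4 would remove most of these types. Levels are UMIs per 1000000 UMIs of all genes but Klrg1 and Il1rl1 (CPM), and shares of UMIs given for lists use the same total. Summed B cell markers were at 11.6 and 52.8 CPM in Klrg1+ Il1rl1+ cells, against 62.6 and 96.4 CPM in the other VAT cells. They were at 162.1 CPM in spleen, with 5 of 10 genes at 0 in VAT. Myeloid markers were at 263.1 and 264.04 CPM, against 207.02 and 246.5 CPM in the other VAT cells and 463.8 CPM in spleen, with 10 of 21 genes at 0 in VAT. CD8 T and NK markers were at 89.6 and 83.4 CPM, against 62.6 and 123.2 CPM in the other VAT cells and 155.2 CPM in spleen, with 8 of 13 at 0 in VAT. One myeloid gene, Cst3, and 1 CD8 gene, Cd8b1, were abundant enough to test, and neither was called. The highest value of each of these 3 lists was in spleen. Adipocyte markers were at 34.7 and 27.8 CPM, against 9.63 and 21.4 CPM in other VAT cells. Stromal markers were at 20.2 and 36.1 CPM, against 38.5 and 26.8 CPM, and red cell genes at 2.89 and 2.78 CPM, against 0 and 0 CPM. All 3 rest on few UMIs. Adipocyte markers had 12 and 10 UMIs against 2 and 4, stromal markers 7 and 13 against 8 and 5, and red cell genes 1 and 1 against 0 and 0. In spleen these lists were at 29.6, 59.3 and 202.3 CPM, in the same order. Of these lists 6 of 11, 12 of 16 and 4 of 6 genes were at 0 in VAT, and none had a gene abundant enough to test. The list for group 2 innate lymphoid cells, which also carry ST2 and GATA3, was at 1321 and 1278 CPM, against 1078 and 884.1 CPM, with 4 of 15 genes at 0 in VAT. Most of that sum is Il2ra, which Tregs themselves use. A fit without cells holding 2 or more UMIs of these lists, the innate lymphoid list aside, was run as an alternative. Its calls are given below. Whether these markers caused any difference was not tested.

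The central question was whether Klrg1+ Il1rl1+ cells differ in anything but the rule from the VAT Tregs around them. Almost nothing passed the test: of 3588 genes with at least 30 UMIs, none was called higher in Klrg1+ Il1rl1+ cells and 1, Penk, was called lower. That is 0.0279% of the genes tested by edgeR's quasi-likelihood test at a Benjamini-Hochberg adjusted p under 0.05. Each of the Klrg1+ Il1rl1+ cells used was paired with a VAT cell outside the rule of the same library with a UMI total within 10%. Their median depth was 1432 and 1443 UMIs, against 1522 and 1515 in the cells they were paired with, and their sums were 180284 and 163963 UMIs, against 190807 and 172788. The UMIs of each class were summed per library, and the library was a block. An unadjusted p under 0.05 by edgeR's quasi-likelihood test was reached by 4.85% of genes, 84 of them higher and 90 lower. That is about the share this threshold gives when no gene differs. DESeq2 called 1 gene with 14 at an unadjusted p under 0.05. With 2 libraries the fit has 1 residual degree of freedom, so a missed call does not show equal levels, and the width of the intervals says more. The classes are also not cleanly separate: 81 and 86 of the other cells had Klrg1, and 24 and 15 had Il1rl1. A missed UMI moves a cell out of the rule, so the classes can look more alike than they are. The median log2 fold change was -0.01, and 94.1% of the genes had an estimate within 2-fold. The whole 95% interval lay within 2-fold for 27.6% of all tested genes. For genes with at least 200 UMIs all estimates lay within 2-fold, and for 96.6% of these the whole interval did. Across all tested genes 878 (24.5%) were above the other cells in both libraries and 895 (24.9%) were below in both.

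**Figure D2:**
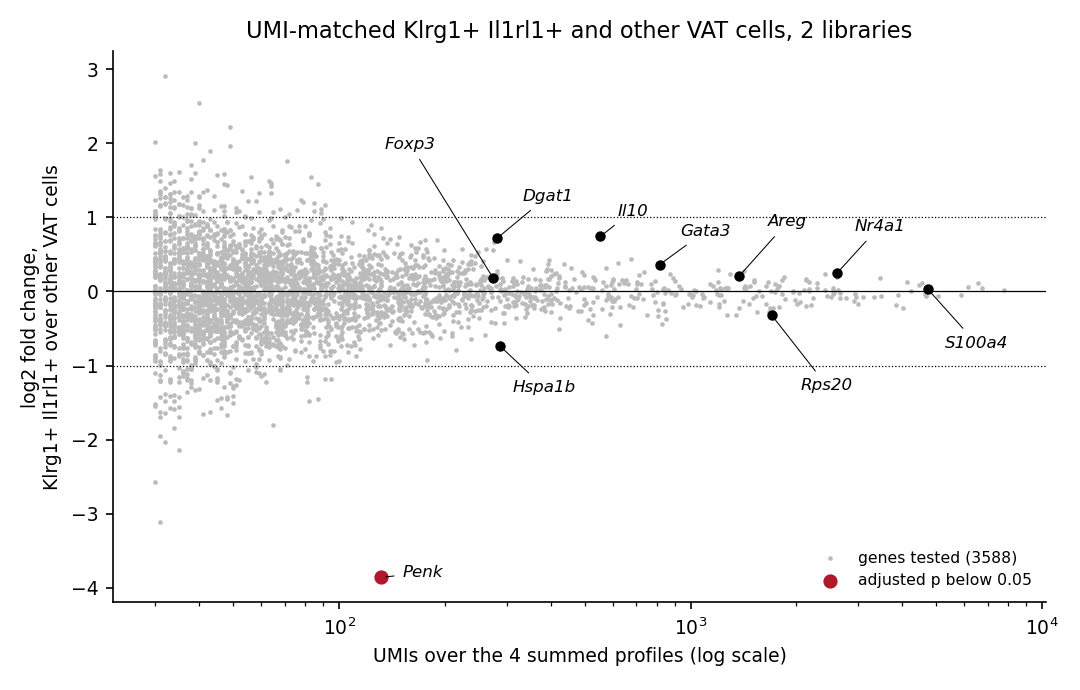
Log2 fold change of Klrg1+ Il1rl1+ cells over other VAT cells (y axis) against the UMIs summed over the 4 paired profiles (x axis, log scale) for 3588 genes, with Klrg1 and Il1rl1 left out. Dotted lines mark a 2-fold difference. Penk, in red, is the single called gene, and the cloud narrows to within 2-fold as the UMI sum grows.

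Penk encodes preproenkephalin, the precursor of the enkephalin opioid peptides. In the paired cells Penk (chr4:4133531-4138819, minus strand) had 7 and 1 UMIs in Klrg1+ Il1rl1+ cells of libraries 2 and 3, against 96 and 28 in other VAT cells. Both sums of Klrg1+ Il1rl1+ cells lay below both sums of the other cells. The log2 fold change was -3.86 ± 0.45 (SE), with an adjusted p of 1.16e-05 by edgeR's quasi-likelihood test. Very few cells carried these UMIs. Over all cells, without pairing, Penk was at 106.98 and 86.2 CPM in Klrg1+ Il1rl1+ cells, where 37 UMIs sat in 7 cells and 31 in 3, against 505.5 and 150.02 CPM in other VAT cells, where 7 and 2 cells held it. Single cells held up to 25 and 29 of them among the Klrg1+ Il1rl1+ cells, and up to 82 and 14 among the other cells. The paired cells thus held 7 of the 37 and 1 of the 31 UMIs, and the cells with 25 and 29 were not among them. With all cells, without pairing, the log2 fold change was smaller, at -1.67, with an adjusted p of 2.85e-05 by edgeR's quasi-likelihood test. The share of cells with a Penk UMI after thinning was 2.04 and 1.03%, against 4.48 and 1.67% of other VAT cells and 6.13% of spleen cells. The call was lost without cells of 20 or more Penk UMIs, where the log2 fold change was -2.26 with an adjusted p of 0.553 by edgeR's quasi-likelihood test. It was also lost with all cells thinned, without cells that hold markers of other cell types, and with the rule applied after thinning, at adjusted p of 0.771, 0.628 and 0.974 by the same test.

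Il10 encodes IL-10, the anti-inflammatory cytokine for which fat Tregs are known, and its difference did not pass the test. In the paired cells Il10 (chr1:131019845-131024974, plus strand) was at 1088 and 889.1 CPM in Klrg1+ Il1rl1+ cells, against 467.7 and 725.7 CPM in other VAT cells. The sums of Klrg1+ Il1rl1+ cells lay above those of the other cells, without overlap, but the libraries differed in size of effect. The ratio was 2.33 (1.802 to 3.03) in library 2 and 1.22 (0.958 to 1.57) in library 3, where the exact intervals hold the error of counting alone. The log2 fold change was 0.74 ± 0.19 (SE), with an adjusted p of 0.562 by edgeR's quasi-likelihood test. Using all cells without pairing by depth, where 0.165% of 4848 genes were called, the log2 fold change was 0.74 with an adjusted p of 0.00263 by the same test, and over all alternatives the adjusted p ran between 0.00263 and 1. After thinning, 25.5% (19.6 to 32.2%) and 21.6% (16.1 to 28.1%) of Klrg1+ Il1rl1+ cells held an Il10 UMI, against 12.7% (7.57 to 19.5%) and 16.7% (10.5 to 24.6%) of other VAT cells and 0.533% of spleen cells. The intervals just separate in library 2 and overlap in library 3. At full depth those shares were 32.1 and 25.8%, against 15.7 and 21.7%. Il10 came from few cells: the 10% of Klrg1+ Il1rl1+ cells with most, 20 and 19 cells, held 70.4 and 75.1% of their Il10 UMIs, with up to 44 and 22 in 1 cell.

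**Figure D3:**
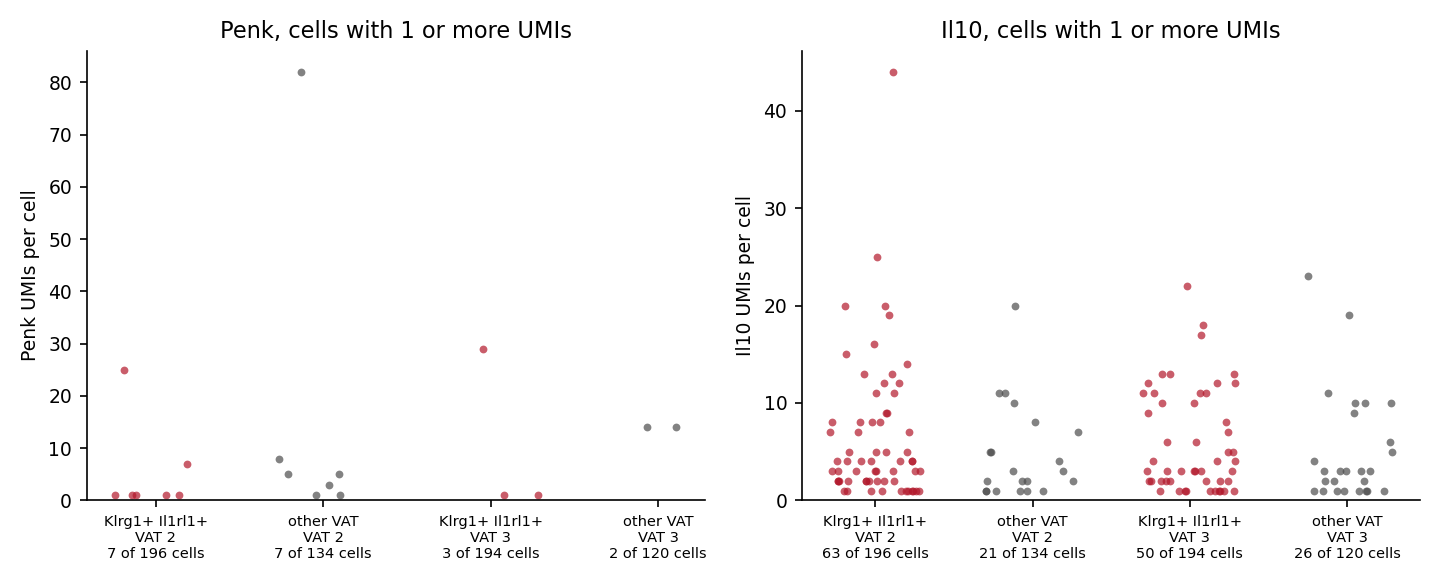
UMIs of Penk and of Il10 (y axis) in each cell with at least 1 UMI of the gene, for Klrg1+ Il1rl1+ cells and then other VAT cells in each VAT library. Each point is 1 cell. Penk rests on 7 and 3 Klrg1+ Il1rl1+ cells against 7 and 2 other cells, and Il10 on 63 and 50 against 21 and 26.

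The receptors, transcription factors and products of tissue Tregs were next compared as lists, each read against the 0.0279% of all genes called and the median of -0.01 over all genes. Of the 30 genes of the tissue Treg programme 22 were tested and none was called, with a median log2 fold change of 0.28. Of these 22 genes, 13 were above the other VAT cells in both libraries, a larger share than the 24.5% of all tested genes. Below in both were 3, a smaller share than the 24.9% of all tested genes. An unadjusted p under 0.05 by edgeR's quasi-likelihood test was reached by 3, a larger share than the 4.85% of all genes. The list as a set was not tested. Gata3, a transcription factor that sustains ST2, was at 1529 and 1073 CPM in Klrg1+ Il1rl1+ cells, against 1140 and 870.8 CPM in the paired other cells. Its log2 fold change was 0.36 ± 0.14 (SE), with an interval of 0.08 to 0.65 and an adjusted p of 0.904 by edgeR's quasi-likelihood test. Dgat1, an enzyme of triglyceride synthesis, had 97 and 75 UMIs, against 62 and 48, with a log2 fold change of 0.72 ± 0.25 and an adjusted p of 0.796 by the same test. For both genes the sums of Klrg1+ Il1rl1+ cells were the larger in each library, and for Gata3 the 2 groups overlap across libraries. Areg, which encodes the growth factor amphiregulin, was at 1909 and 2287 CPM, against 1503 and 2160 CPM, again with overlap.

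Chemokine receptors that place T cells in tissue made up part of the same list. Ccr2 was at 881.8 and 925.9 CPM in Klrg1+ Il1rl1+ cells, against 740.9 and 870.8 CPM in other VAT cells. Cxcr6, which binds CXCL16, had 71 and 72 UMIs, against 63 and 42 UMIs. Ccr1, a receptor for CCL3 and CCL5, had 50 and 45 UMIs, against 31 and 34. Within each library every one of these values was the larger in Klrg1+ Il1rl1+ cells, and none passed the test. The transcription factors Batf and Irf4, which drive tissue Treg differentiation, had 19 and 13 UMIs against 16 and 8, and 24 and 20 against 20 and 25. Pparg, the fat Treg regulator, was thinly measured, with 13 and 10 UMIs against 17 and 9. The sums of these 3 factors overlapped between the groups.

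Gata3, Areg and Ccr2 were compared with spleen by their shares in thinned cells. Gata3 was seen in 57.7% (50.4 to 64.7%) and 55.2% (47.9 to 62.3%) of Klrg1+ Il1rl1+ cells, against 50.8 and 45% of other VAT cells and 12.5% of spleen cells. Areg was seen in 53.6 and 53.1%, against 51.5 and 56.7% of other VAT cells and 1.07% of spleen cells. Ccr2 was seen in 46.4 and 42.8%, against 39.6 and 45.8% of other VAT cells and 0.533% of spleen cells. For each gene the VAT classes lay close together and spleen lay far below. Summed per cell, the tissue Treg list had a median of 8 and 7.5 UMIs per 800 in Klrg1+ Il1rl1+ cells, 7 and 7 in cells with Klrg1 but no Il1rl1, 7 and 5.5 in cells without Klrg1, and 1 in spleen. The 10th to 90th percentile of Klrg1+ Il1rl1+ cells lay at 3 and 15 in library 2 and at 2 and 15 in library 3, so the spread among the cells was wider than the gap between the VAT classes.

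**Figure D4:**
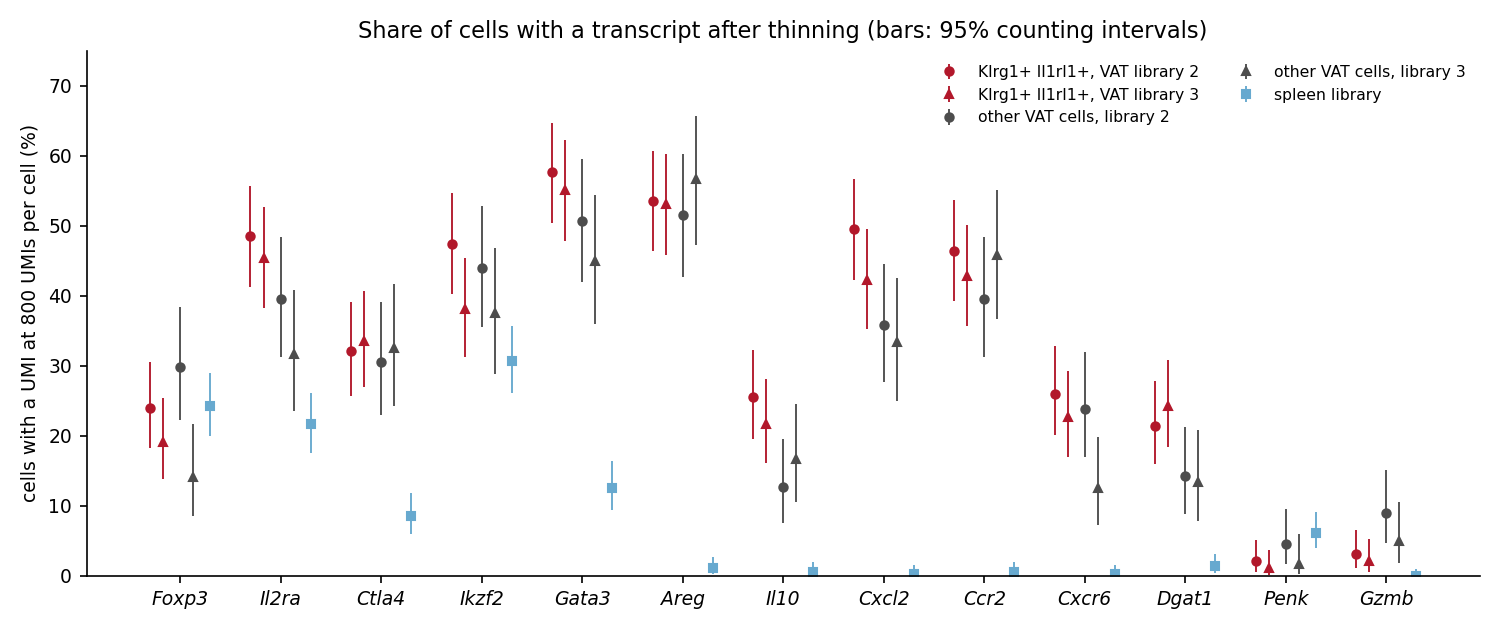
Percent of cells with at least 1 UMI of each of 13 genes after thinning every cell to 800 UMIs, for Klrg1+ Il1rl1+ cells and then other VAT cells in each VAT library, and for spleen. Points are the shares and bars are exact 95% intervals for counting error alone. For most genes the 4 VAT values lie together, and for Gata3, Areg, Cxcl2 and Ccr2 spleen lies far below them.

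**Figure D5:**
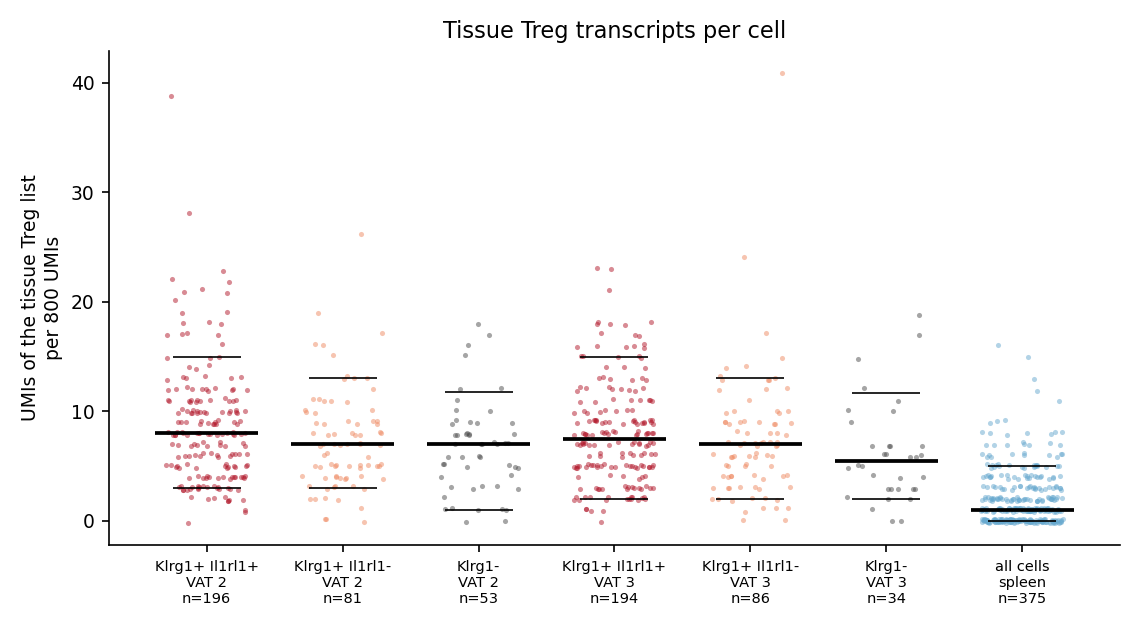
Summed UMIs of the tissue Treg list per 800 UMIs in each cell (y axis) for Klrg1+ Il1rl1+ cells, cells with Klrg1 but no Il1rl1, and cells without Klrg1 in each VAT library, then spleen. Thick bars are medians and thin bars the 10th and 90th percentiles. The VAT medians lie between 5.5 and 8 and spleen lies at 1.

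The pathway that ST2 feeds showed no called gene. Of 20 IL-33 signalling genes 9 were tested, with a median log2 fold change of -0.02. One gene was above the other cells in both libraries and none was below in both. Il1rap, the co-receptor ST2 needs, was barely captured, with 3 UMIs in 3 Klrg1+ Il1rl1+ cells of each library, none in other VAT cells and 3 UMIs in spleen. The kinase Irak2 had 7 and 8 UMIs in paired Klrg1+ Il1rl1+ cells, against 15 and 6 in other VAT cells, and Sigirr, a negative regulator of the receptor family, had 11 and 8, against 8 and 7. Of 15 NF-kB target genes 11 were tested, with a median of 0.03, 4 above in both libraries and 3 below in both. Nfkbia, an inhibitor of NF-kB that NF-kB itself induces, was at 6262 and 5997 CPM, against 5764 and 5411 CPM, a log2 fold change of 0.13. Traf1, an adaptor of TNF receptors, had 18 and 10 UMIs, against 32 and 24, below the other cells in both libraries without passing the test.

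No gene of Treg identity was called. Of 21 core Treg genes 13 were tested, with a median log2 fold change of -0.02, 4 above in both libraries and 4 below in both. Foxp3 had 83 and 58 UMIs in Klrg1+ Il1rl1+ cells, against 86 and 47 in other VAT cells, a log2 fold change of 0.18 with an interval of -0.34 to 0.71. Il2ra was at 1044 and 858.4 CPM, against 945.8 and 807 CPM, with overlap across libraries. Izumo1r, which encodes the folate receptor FR4, had 9 and 15 UMIs, against 15 and 29. Its share of cells after thinning, 3.57 and 6.19% against 2.99 and 7.5% in other VAT cells, was far below the 52.5% in spleen. Among genes of lymphoid homing, Ccr7, the receptor that guides T cells into lymph nodes, had 4 and 0 UMIs over all Klrg1+ Il1rl1+ cells, against 4 and 2 in other VAT cells and 76 in spleen. Of the 18 genes in that list 8 were tested, with a median of -0.06, 2 above and 2 below in both libraries.

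Secreted products other than IL-10 gave no call apart from Penk. Of 27 genes, a list that shares Il10 and Areg with the tissue Treg list, 9 were tested, with a median log2 fold change of 0.20. Of these 9, 6 were above the other cells in both libraries and 1 was below in both. An unadjusted p under 0.05 by edgeR's quasi-likelihood test was reached by 4 of them, a larger share than the 4.85% of all genes. Cxcl2, a neutrophil chemoattractant, was at 2171 and 2250 CPM in Klrg1+ Il1rl1+ cells, against 1991 and 1643 CPM, a log2 fold change of 0.28 with an adjusted p of 0.904 by edgeR's quasi-likelihood test. After thinning it was seen in 49.5 and 42.3% of Klrg1+ Il1rl1+ cells, against 35.8 and 33.3% of other VAT cells and 0.267% of spleen cells. Csf1, a macrophage growth factor, had 37 and 22 UMIs, against 24 and 11. Tnf, an inflammatory cytokine, had 23 and 7 UMIs, against 18 and 17. The cytokines Il5 and Il13, which ST2-bearing innate lymphoid cells release, were near 0, at 2 and 6 and at 3 and 0 UMIs over all Klrg1+ Il1rl1+ cells, against 4 and 2 and 0 and 0 over the other VAT cells. Of 15 genes in the list for those cells and type 2 effectors, and of 20 for other T helper types, 1 each was tested and none was called.

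Activation genes were split. Of 25 activation and checkpoint genes 12 were tested, with a median of 0.05, 4 above in both libraries and 3 below in both. Pdcd1, which encodes the checkpoint receptor PD-1, had 22 and 24 UMIs in Klrg1+ Il1rl1+ cells, against 11 and 13, a log2 fold change of 1.01 with an adjusted p of 0.976 by edgeR's quasi-likelihood test. Cd69, a gene of recent activation and tissue residence, was at 1222 and 1453 CPM, against 1419 and 865 CPM, below the other cells in library 2 and above them in library 3. Gzmb, which encodes the protease granzyme B, had 7 and 16 UMIs, against 37 and 12, again in opposite directions in the 2 libraries. Of 25 immediate-early genes 21 were tested, with a median of 0.04, 9 above in both and 6 below in both. Nr4a1, induced by T cell receptor signalling, was at 4677 and 3409 CPM, against 3652 and 3065 CPM, a log2 fold change of 0.25 ± 0.08 (SE) with an adjusted p of 0.669 by edgeR's quasi-likelihood test. Fos, an AP-1 subunit, was at 1786 and 1815 CPM, against 2065 and 2113 CPM. Over all cells, without pairing, the list's summed share of UMIs was 3.34 and 3.06% in Klrg1+ Il1rl1+ cells, against 3.36 and 3.16% in other VAT cells. Tissue digestion, which both classes went through, can induce these genes, and its effect was not tested.

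Among the remaining immune lists none had a called gene. Of 29 chemoattractant and migration genes 15 were tested, with a median of 0.14, 7 above in both libraries and 4 below in both. Of 31 cytokine receptor genes 19 were tested, with a median of -0.01. In that list Stat6, which carries the IL-4 signal, had 31 and 20 UMIs in Klrg1+ Il1rl1+ cells, against 18 and 11 in other VAT cells, above them in both libraries. Of 15 genes of the T cell receptor and CD4 12 were in the table and were all tested, with a median of -0.11. Lck, the kinase that starts T cell receptor signalling, was at 597.2 and 656.1 CPM, against 840.7 and 795.3 CPM, with a log2 fold change of -0.39 and an adjusted p of 0.976 by edgeR's quasi-likelihood test. Of 22 interferon genes 15 were tested with a median of 0.20, and of 12 genes of MHC class I 11 were tested with a median of -0.05. Ly6a, which encodes Sca-1, was at 1965 and 1772 CPM, against 1561 and 1486 CPM, and Ifi47, an interferon-induced GTPase, had 6 and 12 UMIs, against 20 and 24. The 2 genes lay on opposite sides within 1 list.

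Structural, metabolic and housekeeping lists were also without a call. Of 24 S100, annexin and cytoskeleton genes 23 were tested, with a median of 0.03. S100a4, a calcium-binding protein of effector cells, was seen after thinning in 97.4 and 98.97% of Klrg1+ Il1rl1+ cells, against 94.03 and 95% of other VAT cells and 6.93% of spleen cells. Of 28 lipid genes 14 were tested with a median of -0.01, of 15 glycolysis genes 10 with a median of -0.04, and of 12 heat shock genes 11 with a median of 0.03. Hspa1b, an inducible Hsp70, was at 267.9 and 337.2 CPM, against 588.5 and 417.99 CPM, and Hsph1, an Hsp110 chaperone, had 19 and 22 UMIs, against 4 and 14, on opposite sides of the other cells. Cell cycle genes had a median of -0.21 over 8 tested of 22, with none above in both libraries and 3 below in both. Pcna, the replication clamp, had 40 and 31 UMIs, against 61 and 51. Of 87 ribosomal protein genes 79 were tested, with a median of -0.07, and 39 were below the other VAT cells in both libraries while 7 were above in both, beside 24.9 and 24.5% of all genes. An unadjusted p under 0.05 was reached by 15 of them, beside 4.85% of all genes. Rps20, of the small subunit, was at 2087 and 2195 CPM, against 2832 and 2508 CPM, with an adjusted p of 0.562 by edgeR's quasi-likelihood test. Over all cells the ribosomal share of UMIs was 17.4 and 19.9%, against 18.5 and 19.6%, below the other cells in library 2 and above them in library 3.

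The other VAT cells were also split by Klrg1. Against 81 and 84 depth-paired cells with Klrg1 but no Il1rl1, 2671 genes were tested, none was called higher and 1, Penk, lower (0.0374%). At an unadjusted p under 0.05 there were 4.12% of genes by edgeR's quasi-likelihood test, DESeq2 called 1 gene with 4 at that unadjusted level, and using all cells without pairing 0.0892% were called. Penk had 0 and 1 UMIs in the paired Klrg1+ Il1rl1+ cells, which is 0 and 7.95 CPM, against 825.8 and 208.9 CPM in cells with Klrg1 but no Il1rl1, where 6 and 2 cells held it. The fitted log2 fold change was -6.60 in the paired cells, which is no bound since 1 sum is 0, and -2.27 with all cells, in which Klrg1+ Il1rl1+ cells hold 37 and 31 UMIs. Il10 was at 744.05 and 850.1 CPM, against 468.5 and 850.4 CPM, with a log2 fold change of 0.29 and an adjusted p of 0.996 by edgeR's quasi-likelihood test. Its levels lay apart in library 2 and together in library 3. Gzmb had 2 and 0 UMIs in the paired cells, against 27 and 10, a log2 fold change of -4.01 with an adjusted p of 0.331 by the same test. Over all Klrg1+ Il1rl1+ cells it had 22 and 32 UMIs, and with all cells the log2 fold change was -0.85. The tissue Treg list had a median of 0.24 over 21 tested genes.

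Against cells without Klrg1 the numbers were small, with 53 and 34 pairs. No gene of 1373 was called by edgeR's quasi-likelihood test (0.0%), 65 (4.73%) were at an unadjusted p under 0.05, and DESeq2 called 0 with 8 at that level. The whole 95% interval lay within 2-fold for 17.3% of the genes tested, and for 94.3% of those with at least 200 UMIs. Il10 had 64 and 50 UMIs in Klrg1+ Il1rl1+ cells, against 42 and 22 in Klrg1- cells, with a log2 fold change of 0.98 ± 0.31 (SE) and an adjusted p of 0.937 by edgeR's quasi-likelihood test. Lck had 24 and 26, against 59 and 62, with a log2 fold change of -1.15 and an adjusted p of 0.937 by the same test. Both genes differed in the same direction in both libraries and neither passed. The tissue Treg list had a median of 0.45 over 13 tested genes and the ribosomal list a median of -0.17.

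Klrg1+ Il1rl1+ cells varied widely among themselves. At full depth Gata3 was seen in 73.5 and 73.2% of them, Areg in 65.8 and 72.7%, Ccr2 in 61.7 and 63.4%, and Cxcr6 in 37.8 and 40.2%, with similar shares in both libraries. S100a4 was seen in all of them and Nr4a1 in 85.7 and 85.6%. Some products were concentrated: the 10% of cells with most held 52.8 and 48.4% of Cxcl2 UMIs and 40.9 and 41.9% of Areg UMIs, but 36.5 and 32.4% of Gata3 UMIs. Gzmb was seen in 12 and 7 cells, with 15 of its 32 UMIs in library 3 in 1 cell.

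Within the Klrg1+ Il1rl1+ cells, the products were compared for whether they shared cells, in thinned cells and over 12 pairs of genes, as a description. Cxcl2 was seen in 62% (47.2 to 75.4%) and 64.3% (48.03 to 78.5%) of cells with an Il10 UMI, against 45.2% (36.96 to 53.7%) and 36.2% (28.6 to 44.4%) of cells without one. The share was larger in Il10-bearing cells of both libraries, and the intervals separate in library 3. Ctla4 was seen in 40 and 52.4% of Il10-bearing cells, against 29.5 and 28.3% of the rest. Gata3 was seen in 56 and 50%, against 58.2 and 56.6%, without a larger share in Il10-bearing cells. Areg was seen in 52 and 64.3%, against 54.1 and 50%, in opposite directions in the 2 libraries.

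Levels in cells with more molecules of a rule gene followed no shared order. In cells with 1, 2 and at least 3 Il1rl1 UMIs, Gata3 was at 1512, 1362 and 1666 CPM in library 2 and at 1194, 1260 and 1089 CPM in library 3. Areg was at 1912, 1737 and 2212 CPM and at 2010, 2357 and 2200 CPM in the same strata. Il10 was at 1307, 1373 and 1046 CPM and at 1224, 665.2 and 696.9 CPM. None of the 3 genes ran in 1 order in both libraries. In cells with 1, 2 and at least 3 Klrg1 UMIs, Il10 was at 609.6, 1767 and 1230 CPM in library 2 and at 734.9, 762.7 and 866.4 CPM in library 3. Il10 was lowest in the cells with 1 Klrg1 UMI in both libraries, a stratum of 23 and 31 cells. The first 2 strata held only 21 and 49 Il10 UMIs in library 2, and 38 and 29 in library 3. Median depth also differed, at 1446, 1443 and 1695 UMIs and at 1511, 1711.5 and 1765. In these strata Gata3 was at 1422.5, 1586 and 1548 CPM and at 1141, 946.8 and 1192 CPM. Areg was at 2410, 2235 and 1921 CPM and at 1392.5, 3550 and 2144 CPM. Gata3 ran in the order of Il10 in library 2 but not in library 3, and Areg did so in neither.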

How the data were processed

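Single-cell UMI counts per gene, 1 column per cell, were used as the authors deposited them; the values are raw counts and whole numbers. Reads were handled with TopHat2 and SAMtools on mm10, per the submitters' processing notes. The annotation, the filter on cells and any removal of doublets are not given in the sources used here, no doublet caller was run, and no further filter on cells was applied. The table holds 23725 genes, of which 12329 had a UMI in VAT. Each deposited sample is 1 cell, so counts were summed per library and class, and the library was the replicate. VAT library 2 gave 330 cells (196 Klrg1+ Il1rl1+ and 134 others), VAT library 3 gave 314 (194 and 120), and spleen 375.

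The members, gene lists and tests were chosen with earlier results of these data known. Klrg1+ Il1rl1+ cells were paired, starting with the shallowest, each with 1 comparison cell of its library. The partner was the nearest unpaired cell in UMIs without Klrg1 and Il1rl1, within 10%. Against all other VAT cells this gave 119 and 107 pairs. Klrg1+ Il1rl1+ cells left without a partner, more often the deeper ones, were not in that test. Genes with at least 30 UMIs over the 4 sums were tested with edgeR 4.0.16 (quasi-likelihood, TMM scaling, library as block) in R 4.3.3, and DESeq2 1.42.0 was an alternative. Klrg1 and Il1rl1 were not tested. P-values were adjusted over all tested genes by Benjamini-Hochberg. The procedure was also run on simulated counts with the same spread for every gene. That cannot show how it treats genes whose UMIs sit in few cells, such as Penk. Shares of cells come from cells thinned to 800 UMIs with exact (Clopper-Pearson) 95% intervals. Ratios have exact conditional binomial intervals. Intervals of shares and ratios hold only the error of counting, and where UMIs sit in few cells the true error is larger. Standard errors of log2 fold changes come from the F statistic. The 95% intervals of log2 fold changes are built on them and are not adjusted for the number of genes tested. Named genes were the 4 lowest p-values of each list, fixed Treg and T cell genes, and called genes, and of them 105, 98 and 73 were tested in the 3 comparisons. Any other gene named was chosen after its values were seen. Coordinates are from GENCODE M21. A second deposited table, of cell labels, was not used. No sequences are shown, and 1 gene is not reported here.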

Additional observations from a re-analysis of the deposited data

How the results depend on the processing

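Named in the order higher then lower, the comparison with all other VAT cells gave 0 and 1 called genes, that with cells bearing Klrg1 but no Il1rl1 gave 0 and 1, and that with Klrg1- cells gave 0 and 0. The direction of Penk, the 1 called gene, did not reverse in the 14 alternatives in which it was tested. Against all other VAT cells, using all cells without pairing gave 5 higher (Il10, Nr4a1, Odc1, Pkmyt1 and Zmpste24) and 3 lower (Fos, Hspa1b and Penk). Pairing the deepest cells first, chosen after seeing the data, gave 3 higher (Aebp2, Pkmyt1 and Svil) and 3 lower (Fos, Hspa1b and Penk). A filter of 100 UMIs, and leaving out the 5% of cells with most UMIs, gave 1 higher each, Il10. The number lower was 0 with all cells thinned, with Foxp3-bearing cells alone, without cells holding 2 or more other-cell marker UMIs, with the rule applied after thinning, and without cells of 20 or more Penk UMIs, the last chosen after seeing the data. Under 4 of these Penk had log2 fold changes of -1.98, -2.26, -0.66 and -2.26, and with Foxp3-bearing cells alone it was too rare to test.

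Against cells with Klrg1 but no Il1rl1, 2 were higher (Kcmf1 and Zmpste24) without cells of other-cell markers. The number lower was 4 with all cells (Fos, Hspa1a, Hspa1b and Penk) and 0 with Foxp3-bearing cells or with 2 UMIs of each rule gene required, where Penk had a log2 fold change of -5.63. It was 2 (Gzmb and Penk) with RLE factors, with no filter, without the deepest 5% of cells and without cells of 20 or more Penk UMIs, and 2 (Fos and Penk) with the deepest paired first. Against Klrg1- cells, 1 was higher with a filter of 100 UMIs (Klf6), 1 without the deepest 5% (Sgpl1), and 1 with the rule applied after thinning (Il10), which also gave 1 lower (Dusp2). The cause was not tested in any of these.

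With no replicate block for the library, the counts were 0 and 1 against all other VAT cells, 0 and 2 (Gzmb and Penk) against cells with Klrg1 alone, and 1 (Sgpl1) and 0 against Klrg1- cells. Spleen and VAT share only a number, and no paired analysis was made between them. Leaving out a library leaves 1 sample per class and no test, so only the per-library values above stand for it. Of the named genes 43, 48 and 33 changed sign, in the 3 comparisons in the order above, in at least 1 alternative, and 13 of 464 shares fell outside their interval with another random draw. The limits are 2 libraries, 644 VAT cells and sparse UMIs, under which low genes can differ by more than 2-fold without being called. Cells whose Klrg1 or Il1rl1 molecules were missed count as other cells, which can narrow the differences seen.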
